A study of Mus musculus with 57 samples.

Results

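The genes described here are 10 known targets of the transcription factor p53: Cdkn1a, Btg2, Gtse1, Ccng1, Mdm2, Phlda3, Zmat3, Eda2r, Bbc3 and Trp53inp1. They were chosen by symbol, and all 10 were found among the 54307 genes of the deposited table by their Ensembl IDs. Bulk RNA-seq was measured in the livers of 57 male wild-type C57BL/6JJcl mice, in a series made to evaluate deconvolution, the estimation of cell type shares from tissue expression. The mice were 6 weeks old, were acclimatised for 1 week, fasted for 12 h, given a liver toxicant or a vehicle, and killed 24 h later. By gavage, 4 mice received alpha-naphthyl isothiocyanate (ANIT), which injures bile duct cells, and 7 received 4,4'-methylene dianiline (MDA), also a bile duct toxicant. By the same route 6 received acetaminophen (APAP) and 5 received thioacetamide (TAA), both activated by cytochrome P450 enzymes in hepatocytes. By intraperitoneal injection, 7 received carbon tetrachloride (CCl4), also activated by P450, and 4 received galactosamine (GAL), which depletes uridine nucleotides in hepatocytes. By intravenous injection, 7 received concanavalin A (ConA), a plant lectin that activates T cells. The vehicle groups were 13 mice given 0.5% methylcellulose by gavage (Ctrl), 2 given saline intraperitoneally (CIP) and 2 given saline intravenously (CIV).

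The amount of each compound was not given in the sources used here. Corn oil is among the vehicles in the labels but was given to none of the vehicle mice, so compound and vehicle cannot be told apart for any compound given in corn oil. Nothing in the labels says that mice of a group came from separate cages or days, so p-values measure only the spread between these mice. The deposited estimated counts summed to 13826343 in the smallest library, 35075809 in the largest and 21532116 at the median. Between mice of a group, Pearson's r of log2 expression across genes lay between 0.848 and 0.966. Levels are in CPM, that is, estimated counts scaled by library size and by TMM factors taken over all 57 mice. The deposited values behaved as if corrected for transcript length, so levels of different genes can be compared roughly per length. The tissue label fitted its markers: 6 hepatocyte genes summed to between 50890 and 115500 CPM in the 17 vehicle mice. In bulk tissue, fewer cells of a type and less RNA per cell cannot be told apart.

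The protein p53 is held at a low level by the ubiquitin ligase Mdm2, and it accumulates after DNA damage and other stresses and then switches on genes that halt division, repair damage or start cell death. It binds DNA as a tetramer at a pair of short half-sites. Cdkn1a is its best known target and encodes p21, an inhibitor of cyclin-dependent kinases, but p21 is also switched on by other regulators. In the liver, p21 is known to restrain hepatocyte division after injury, and Mdm2 closes a feedback loop because p53 itself raises it.

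The promoter of Cdkn1a is shown because Cdkn1a was the member that separated all treated mice from all vehicle mice. RefSeq promoter windows on the build GRCm38.p6, 300 bases around a gene start, were found by symbol for 8 of the 10 genes, and none was found for Zmat3 or Trp53inp1. They were searched on both strands for the p53 half-site consensus, a pattern of 10 bases that is its own reverse complement, so that 1 match counts for both strands. A half-site was present in 4 of the 8 genes, beside 9.55% of all 27025 genes with a window. A pair of half-sites with a spacer of at most 13 bases was present in 1 of the 8, Cdkn1a, beside 20 of all genes (0.0740%). Among 24 other p53 targets with a window, 7 (29.2%) held a half-site and 0 a pair. The exact pattern was thus absent from the windows of most of these targets. The Cdkn1a pair lies before the upstream of 2 annotated starts, 2790 bases before the other, with half-sites beginning at −73 and −51 and a spacer of 12 bases. The 250 bases before that start are chr17:29090729-29090978 on the plus strand, with the half-sites in capitals. The 10 bases after the second half-site miss the pattern only at their first base and are left in lower case.
Cdkn1a: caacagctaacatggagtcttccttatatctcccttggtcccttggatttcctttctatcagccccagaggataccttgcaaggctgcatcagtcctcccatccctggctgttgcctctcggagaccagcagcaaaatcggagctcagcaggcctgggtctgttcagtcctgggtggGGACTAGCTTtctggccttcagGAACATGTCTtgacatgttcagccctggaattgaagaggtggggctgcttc

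Mdm2, Ccng1 and Gtse1 each held 1 half-site, shown with 3 bases on each side and the half-site in capitals. The Mdm2 site is at chr10:117710932-117710947 on the minus strand and begins at −186. The Ccng1 site is at chr11:40755459-40755474 on the minus strand and begins at −185. The Gtse1 site is at chr15:85859952-85859967 on the plus strand and begins at 10 after the second of its starts. These matches describe the letters and are not evidence of binding.
Mdm2: tagGAACTTGCCTagc
Ccng1: cccGGGCAAGCCTtgg
Gtse1: ttgGGGCTTGCCTctg

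Each compound raised Cdkn1a and Mdm2 against the vehicle of its route, so by this test none raised Cdkn1a alone, and none raised all the members that could be tested. MDA raised 2 of 8 tested members, Cdkn1a and Mdm2. ANIT raised 3 of 8, adding Btg2. APAP raised 5 of 9, Cdkn1a, Mdm2, Phlda3, Btg2 and Gtse1, and lowered Bbc3. TAA raised 9 of 10, with Bbc3 not called. CCl4 raised 8 of 10 (not Btg2 or Bbc3), GAL 7 of 10 (not Btg2, Bbc3 or Trp53inp1) and ConA 8 of 10 (not Ccng1 or Bbc3). A gene was called at an adjusted p under 0.05 in edgeR's quasi-likelihood test, fitted on all genes. Among all tested genes the share called higher was 14.0% for ANIT, 17.3% for APAP, 17.4% for MDA, 26.4% for TAA, 18.0% for CCl4, 12.8% for GAL and 16.8% for ConA. The share called lower was 14.2%, 14.6%, 16.4%, 24.0%, 15.6%, 15.7% and 17.3% in the same order. Members untested were too low in counts for the filter: Eda2r and Gtse1 with ANIT and MDA, and Eda2r with APAP. Eda2r was called higher with APAP in the 3 alternatives that tested it against Ctrl, which made 6 of 10. Since a gene can pass that filter through its treated mice, these counts cover tested members only and do not compare like sets. Over the 8 members tested with every compound, 2 rose with MDA, 3 with ANIT, 4 with APAP, 5 with GAL, 6 with CCl4, 6 with ConA and 7 with TAA.

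Over the 8 members tested with every compound, the median log2 change was 0.31 for ANIT, 0.87 for APAP, 0.40 for MDA, 1.56 for TAA, 1.496 for CCl4, 2.86 for GAL and 2.41 for ConA. Over all 10, with Eda2r and Gtse1 brought in by leaving out the filter, it was 0.016, 1.37, −0.004, 2.10, 1.81, 3.35 and 2.49 in the same order. The ANIT and MDA medians were thus near 0 once the 2 scarce members counted. Over all tested genes the median was between −0.01 and 0.10. The count for ANIT rested on ANIT replicate 3, without which 1 member, Cdkn1a, was higher. That for CCl4 rested on both intraperitoneal vehicle mice, since without either CIP replicate 7 or CIP replicate 8 it was 3. Among mice with replicate numbers above 4, APAP raised 2 members, Cdkn1a and Phlda3. That restriction left 3 APAP and 9 vehicle mice. The share of all genes called in these reduced fits is not given here, so the lower counts cannot be read as particular to the members.

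**Figure D1:**
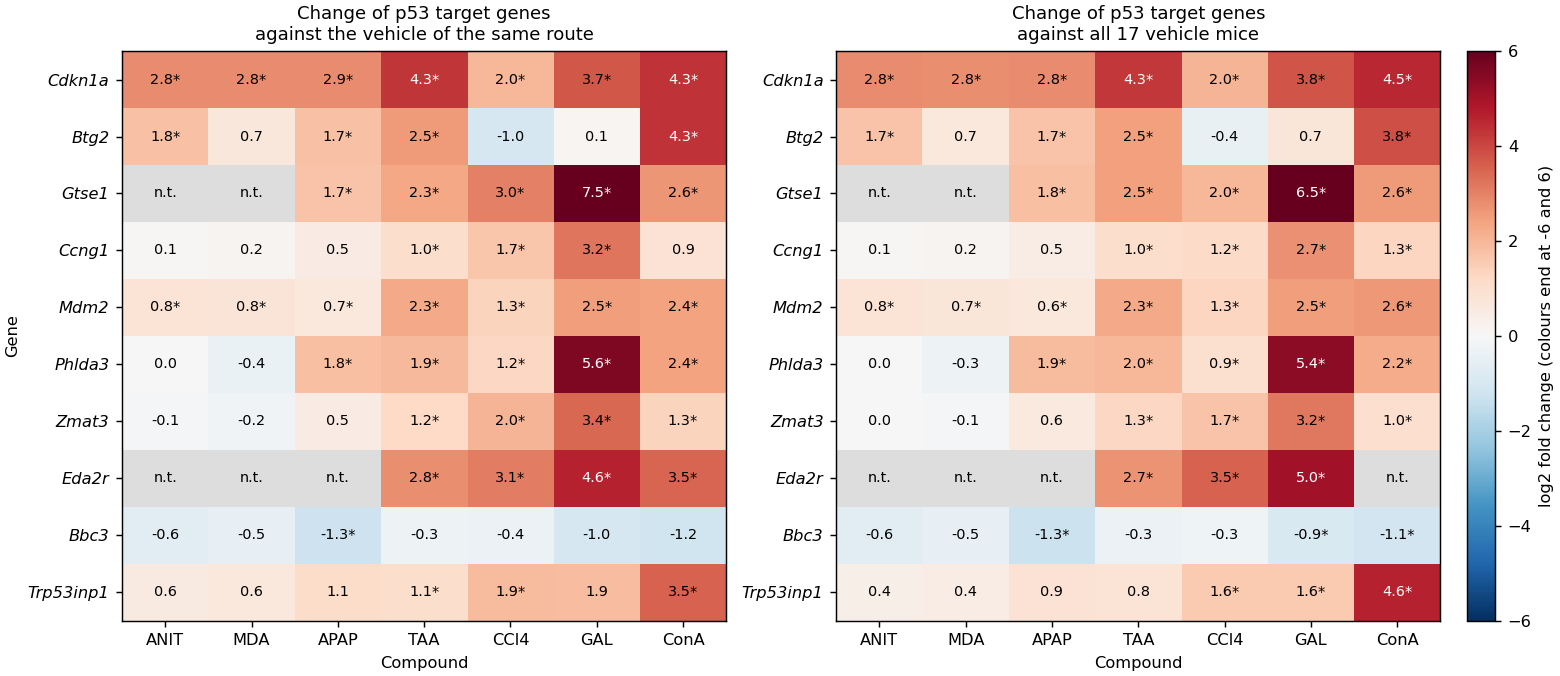
Log2 fold change of the 10 genes (rows) for the 7 compounds (columns), against the vehicle of the same route (left) and against all 17 vehicle mice (right). An asterisk marks an adjusted p under 0.05 in edgeR's quasi-likelihood test and n.t. a gene not tested. Cdkn1a and Mdm2 carry an asterisk in every column, whereas Bbc3 is below 0 throughout with this TMM scaling and above 0, uncalled, for CCl4 with library total scaling.

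Against all 17 vehicle mice the counts were 3 of 8 for ANIT, 5 of 9 for APAP, 2 of 8 for MDA, 8 of 10 for TAA, 8 of 10 for CCl4, 8 of 10 for GAL and 8 of 9 for ConA. The share of all tested genes called higher was then 13.5%, 18.1%, 17.2%, 25.2%, 26.2%, 25.1% and 34.3% in the same order. The named members differed from those of the route comparison in 3 compounds. TAA lost Trp53inp1, GAL gained Trp53inp1, and ConA gained Ccng1 while Eda2r was not tested. Bbc3 was lower with APAP, GAL and ConA, where 15.3%, 27.5% and 33.7% of all tested genes were lower. For ANIT, MDA, TAA and CCl4, with 0 members lower, that share was 14.5%, 17.1%, 24.5% and 27.2%. Leaving out ANIT replicate 3 again left 1 member higher, and APAP among numbers above 4 raised 3 members, each with fewer mice.

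Cdkn1a was the member with the clearest separation. The gavage vehicle mice ranged from 3.87 to 24.6 CPM with a median of 14.0. The CIP mice had 14.9 and 14.2 CPM and the CIV mice 18.0 and 12.2 CPM, all inside the gavage range. The ANIT mice had 75.1, 108, 144 and 59.4 CPM. The APAP mice ranged from 29.9 to 263 CPM with a median of 64.1, and the MDA mice from 58.5 to 173 CPM with a median of 88.9. Every mouse of these 3 groups lay above the highest vehicle mouse, but the APAP mouse at 29.9 was close to it, and APAP replicate 1 at 263 CPM stood well above the other 5. The TAA mice had 323, 229, 225, 196 and 298 CPM and the GAL mice 174, 212, 185 and 203 CPM. The ConA mice ranged from 257 to 331 CPM with a median of 288, and the CCl4 mice from 44.4 to 71.7 CPM with a median of 57.5. The CCl4 mice formed the lowest group by mean, at 57.3 ± 9.10 CPM (SD, n = 7), and the ConA mice the highest, at 294 ± 25.8 CPM (SD, n = 7).

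As log2 fold changes with standard errors, Cdkn1a rose by 2.84 ± 0.36 with ANIT (adjusted p = 2.52e-05), 2.86 ± 0.42 with APAP (4.52e-05) and 2.83 ± 0.31 with MDA (8.8e-07). These 3 values differed by less than their errors, but the APAP value without APAP replicate 1 was 2.21 (0.000189). It rose by 4.29 ± 0.33 with TAA (4.19e-09), 2.01 ± 0.20 with CCl4 (8.04e-05), 3.74 ± 0.20 with GAL (0.00176) and 4.33 ± 0.28 with ConA (1.62e-05). On a linear scale this runs from 4.04-fold with CCl4 to 20.1-fold with ConA. The order at the top depended on the scaling, since with library totals the log2 change was 3.71 with ConA and 4.49 with GAL. Against all 17 vehicle mice the log2 changes ran from 2.03 with CCl4 to 4.52 with ConA. Treated mice lay above all control mice in 3.99% of all tested genes with ANIT, 2.09% with APAP, 1.75% with MDA, 10.0% with TAA, 21.1% with CCl4, 26.7% with GAL and 18.5% with ConA. The high shares for the injected compounds stand beside only 2 vehicle mice each, and against all 17 vehicle mice the shares were 3.00%, 1.70%, 1.37%, 8.67%, 9.04%, 10.7% and 11.7%. The tested members wholly above all 17 numbered 1 with ANIT, APAP and MDA (Cdkn1a), 5 with TAA, 4 with CCl4, 7 with GAL and 5 with ConA, where Eda2r, not tested in that comparison, was wholly above too.

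The gavage vehicle mice themselves fell apart by replicate number in Cdkn1a. The 4 mice numbered 1 to 4 had 8.21, 5.00, 5.05 and 3.87 CPM, and the 9 with higher numbers ranged from 10.4 to 24.6 CPM with a median of 17.2. The ranges did not overlap, and what the numbers stand for is not stated in the labels. All ANIT mice are numbered 1 to 4. With this range as a covariate the log2 change with ANIT was 4.13 in place of 2.84, with APAP 3.25, with MDA 3.29 and with TAA 4.63. Among numbers above 4, it was 2.18 with APAP, 2.86 with MDA and 3.85 with TAA.

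**Figure D2:**
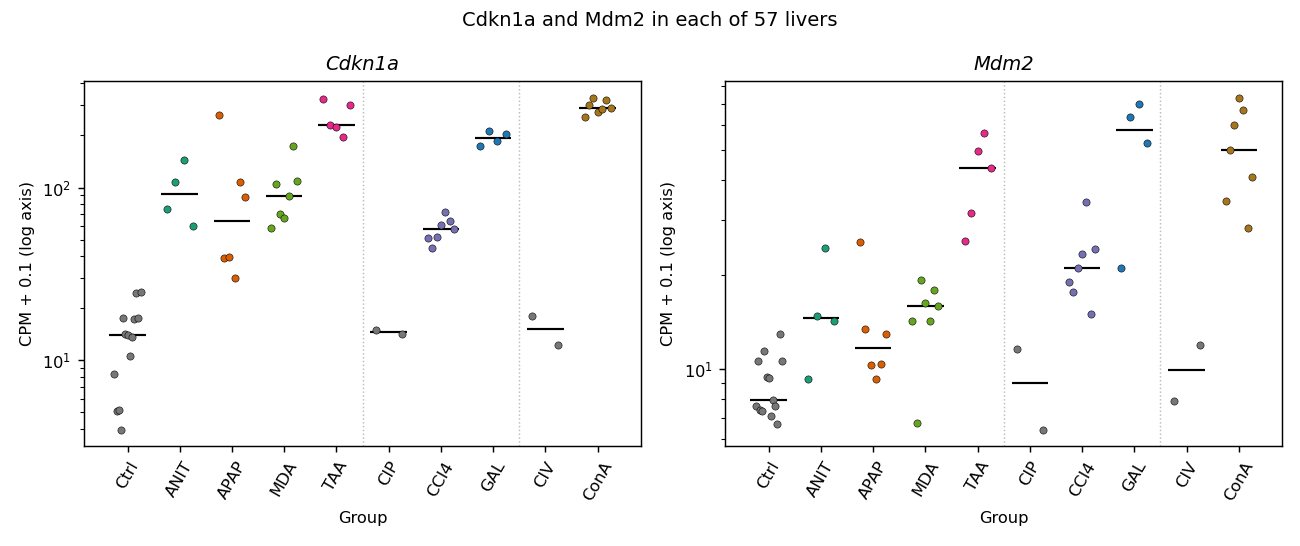
Levels of Cdkn1a (left) and Mdm2 (right) in each of the 57 livers, as CPM + 0.1 on a log axis, by group, with a bar at the group median and dotted lines between routes. Every treated liver lies above the highest vehicle liver of 24.6 CPM in Cdkn1a, whereas in Mdm2 the ANIT, APAP and MDA livers overlap the vehicles.

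Mdm2, which encodes the ligase that marks p53 for degradation, rose with every compound but by less than Cdkn1a. Vehicle mice ranged from 6.30 to 12.9 CPM with a median of 7.88. The ANIT mice had 9.17, 14.7, 24.2 and 14.2 CPM, and the APAP mice ranged from 9.21 to 25.4 CPM with a median of 11.5. The MDA mice ranged from 6.63 to 19.1 CPM with a median of 15.7. In each of these groups at least 1 mouse lay inside the vehicle range. The TAA mice had 25.5, 31.5, 49.7, 56.8 and 43.7 CPM, and the GAL mice 20.9, 63.5, 70.0 and 52.5 CPM. The CCl4 mice ranged from 14.9 to 34.1 CPM and the ConA mice from 28.0 to 73.4 CPM. All mice of these 4 groups lay above every vehicle mouse.

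The log2 change of Mdm2 was 0.82 ± 0.20 (SE) with ANIT (adjusted p = 0.00539), 0.65 ± 0.19 with APAP (0.0138) and 0.75 ± 0.16 with MDA (0.00117). It was 2.28 ± 0.16 with TAA (1.64e-09), 1.33 ± 0.35 with CCl4 (0.0165), 2.52 ± 0.59 with GAL (0.023) and 2.41 ± 0.40 with ConA (0.00149). Several of these calls rested on 1 mouse. Without ANIT replicate 3 the value was 0.53 (adjusted p = 0.0725), with library total scaling it was 0.61 with ANIT (0.0667), and without APAP replicate 1 it was 0.36 (0.0756). Among replicate numbers above 4 it was 0.28 with APAP (0.379). Without CIP replicate 8 it was 0.95 with CCl4 (0.162) and 2.11 with GAL (0.148). The GAL value also missed the threshold without CIP replicate 7 (3.11, 0.073), GAL replicate 4 (2.42, 0.0522) or GAL replicate 8 (2.53, 0.0551). Against all 17 vehicle mice the log2 change was 1.27 ± 0.14 with CCl4 and 2.51 ± 0.20 with GAL (adjusted p = 3.8e-08 and 5.94e-10).

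Gtse1, whose product binds p53 and moves it out of the nucleus in dividing cells, was close to absent in vehicle mice, at 0.0668 to 0.837 CPM with a median of 0.22. The GAL mice had 16.6, 28.7, 25.1 and 25.5 CPM, far above all other livers. The CCl4 mice ranged from 0.431 to 2.16 CPM, the ConA mice from 0.871 to 2.36 CPM and the APAP mice from 0.542 to 1.58 CPM. The TAA mice lay between 1.00 and 1.83 CPM. The ANIT mice had 0, 0.188, 0.0653 and 0.306 CPM and the MDA mice at most 0.268 CPM. Only the TAA, GAL and ConA mice all lay above the highest vehicle mouse. The log2 change with GAL was 7.45 ± 0.43 (SE; adjusted p = 0.00176) against CIP, whose mice had 3.63 and 2.48 estimated counts. Against all 17 vehicle mice it was 6.45 ± 0.30 (1.26e-12), or 87.5-fold. The other log2 changes against the route vehicle were 3.02 ± 0.74 with CCl4, 2.64 ± 0.58 with ConA, 2.33 ± 0.36 with TAA and 1.69 ± 0.37 with APAP. The CCl4 call was lost without CIP replicate 7 (2.80, adjusted p = 0.0938) or CIP replicate 8 (3.18, 0.0684). With APAP among numbers above 4 the value was 1.17 (0.0852), and with ConA without CIV replicate 8 it was 3.45 (0.0102).

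Gtse1 is named for its expression in S and G2 phase, so 12 other genes of the dividing cell were read beside it. With GAL, 8 of them could be tested and edgeR called 0 in either direction, with a median log2 change of 0.22. At an unadjusted p under 0.05 the count was also 0, as it was with DESeq2. Their summed level was 4.54 to 7.31 CPM in the GAL mice and 3.02 to 10.7 CPM in the vehicle mice. With CCl4, 6 of 11 tested rose, among them Mki67 (3.13), a marker of dividing cells, and Top2a (1.94), the topoisomerase that untangles chromosomes. Since a gene can pass the filter through its treated mice, the sets tested differ between compounds and these counts do not compare like sets. With APAP 3 of 9 rose, Ccna2, Plk1 and Cdk1 (5 of 9 against all 17 vehicle mice), and with ConA 0 of 6 were called by edgeR, with 0 at an unadjusted p under 0.05 and 0 by DESeq2. With ANIT 4 of 7 fell, most of all Aurkb, a mitotic kinase (−3.43). With MDA 4 of 6 fell, most of all Cdc20, an activator of the anaphase-promoting complex (−2.12). With TAA 1 rose and 1 fell of 7. In the GAL livers Gtse1 was high while the summed level of these genes lay inside the vehicle range. The GAL tests rest on 2 CIP mice and on genes at low levels, and the source of the Gtse1 rise was not tested.

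**Figure D3:**
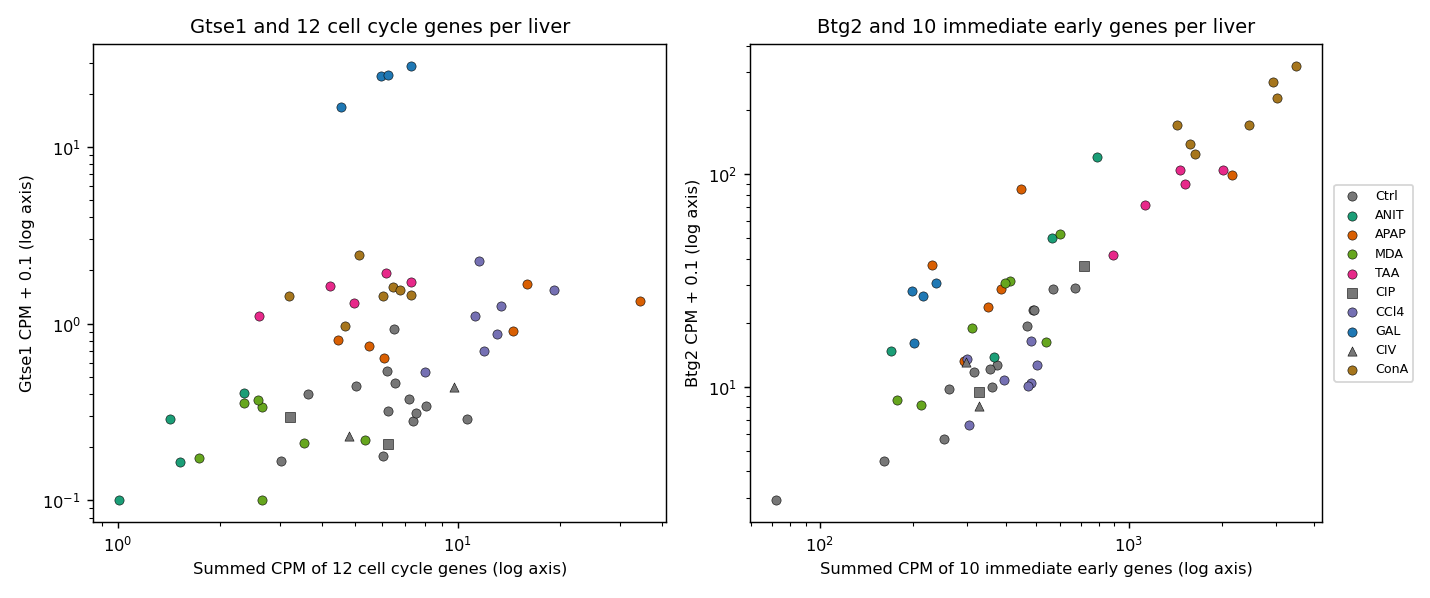
Left, Gtse1 against the summed CPM of 12 cell cycle genes. Right, Btg2 against the summed CPM of 10 immediate early genes. Each point is 1 of 57 livers, both axes are log scales and the y axes are CPM + 0.1. The 4 GAL livers stand apart on the left at 16.6 to 28.7 CPM of Gtse1, and on the right the ConA livers are the highest in Btg2, while APAP replicate 1 and TAA livers overlap them in the summed level.

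Phlda3, which encodes a pleckstrin homology domain protein that competes with the survival kinase Akt for membrane lipids, was also highest with GAL. In vehicle mice it ranged from 0.279 to 2.30 CPM with a median of 0.735. The GAL mice had 32.2, 40.7, 31.1 and 36.96 CPM. The ConA mice ranged from 2.04 to 5.10 CPM, the APAP mice from 1.99 to 4.596 CPM and the CCl4 mice from 1.09 to 2.28 CPM. The TAA mice had 2.09, 5.92, 2.25, 1.59 and 4.68 CPM. ANIT mice, at 0.502 to 1.39 CPM, and MDA mice, at 0.228 to 1.32 CPM, lay inside the vehicle range except for the lowest MDA mouse. Only the GAL mice were all above every vehicle mouse. The log2 change was 5.61 ± 0.26 (SE) with GAL (adjusted p = 0.00176), 2.41 ± 0.47 with ConA (0.00341), 1.94 ± 0.35 with TAA (0.000143), 1.82 ± 0.31 with APAP (0.000177) and 1.24 ± 0.36 with CCl4 (0.0258). With ANIT it was −0.03 ± 0.43 (0.97) and with MDA −0.38 ± 0.37 (0.464). The CCl4 call was lost without CIP replicate 7 (1.25, adjusted p = 0.125) or CIP replicate 8 (1.23, 0.141), with no filter (1.27, 0.0534) and in 1 fit over all 10 groups (1.201, 0.117).

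Ccng1, which encodes cyclin G1, a partner of the phosphatase that acts on Mdm2, rose with GAL, CCl4 and TAA. In vehicle mice it lay between 2.24 and 8.25 CPM with a median of 3.68, and the highest, CIV replicate 8, stood above the highest gavage mouse at 5.96 CPM. The GAL mice had 16.2, 28.4, 32.2 and 32.7 CPM, all above every vehicle mouse. The TAA mice had 6.38, 7.02, 9.64, 8.71 and 8.01 CPM, all above the gavage mice. The log2 change was 3.20 ± 0.39 (SE) with GAL (adjusted p = 0.00346), 1.67 ± 0.39 with CCl4 (0.00989) and 1.05 ± 0.18 with TAA (7.34e-05). With APAP it was 0.47 ± 0.19 (0.0667), and it was called higher without APAP replicate 1 (0.57, 0.0323) and with library total scaling (0.68, 0.0247, and 0.66, 0.0294 against all vehicle mice). With ConA it was 0.86 ± 0.42 (0.137), without CIV replicate 8 it was 2.05 (0.00581) and without CIV replicate 7 0.23 (0.622). The ConA value against all 17 vehicle mice was 1.28 ± 0.20 (2.62e-06). The CCl4 call was lost without CIP replicate 7 (1.78, adjusted p = 0.0583) or CIP replicate 8 (1.57, 0.0914).

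Zmat3, which encodes an RNA-binding zinc finger protein that acts in p53-dependent growth control, rose with the same 3 compounds and with ConA. Levels in vehicle mice lay between 0.885 and 3.52 CPM with a median of 1.34. GAL mice had 9.06, 17.1, 15.2 and 12.8 CPM, and the CCl4 mice ranged from 3.64 to 6.18 CPM. Both groups lay wholly above the vehicle mice. The log2 change was 3.42 ± 0.36 (SE) with GAL (adjusted p = 0.00262), 2.02 ± 0.25 with CCl4 (0.000314), 1.33 ± 0.44 with ConA (0.0411) and 1.18 ± 0.25 with TAA (0.000592). The ConA call was lost without any 1 of ConA replicate 3, 4, 5 or 8 or of the CIV mice (1.02 to 1.72, adjusted p from 0.055 to 0.218). It was also lost with scaling to the library total (0.79, 0.362), which ended the ConA call against all 17 vehicle mice too (0.49, 0.130), with no filter (1.29, 0.0891) and among numbers above 4 (1.52, 0.0794). With APAP, Zmat3 was called against all 17 vehicle mice only with library total scaling (0.75, 0.0394), in 1 fit over all groups (0.56, 0.0418) and without APAP replicate 2 (0.69, 0.0463).

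Eda2r, a receptor of the tumour necrosis factor family that p53 switches on, was the lowest member in vehicle mice, at 0 to 0.457 CPM with a median of 0.112. In GAL mice the levels were 3.08, 4.36, 5.85 and 6.42 CPM. The CCl4 mice ranged from 0.85 to 2.70 CPM, the ConA mice from 0.67 to 2.30 CPM, and the TAA mice had 0.66, 0.707, 1.13, 1.18 and 0.94 CPM. All mice of these 4 groups lay above every vehicle mouse. The APAP mice, at 0.317 to 1.12 CPM, were too low for the filter and overlapped the vehicle mice. Where Eda2r was tested with APAP against Ctrl, it was called higher: the log2 change was 2.04 with DESeq2 (adjusted p = 0.00241), 1.99 with no filter in edgeR (0.0203) and 1.97 in 1 edgeR fit over all 10 groups (0.000479). Among numbers above 4, tested against all vehicle mice, it was 1.47 and not called (0.115). The log2 change was 4.64 ± 0.94 (SE) with GAL (adjusted p = 0.0152), 3.49 ± 0.62 with ConA (0.00204), 3.07 ± 0.89 with CCl4 (0.025) and 2.78 ± 0.51 with TAA (0.00014). Without CIP replicate 7, which had 0.0181 CPM against 0.457 in the other CIP mouse, the CCl4 value was 1.92 (0.102) and the GAL value 3.42 (0.0384), and without the other CIP mouse they were 5.71 (0.00582) and 7.15 (0.0184).

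**Figure D4:**
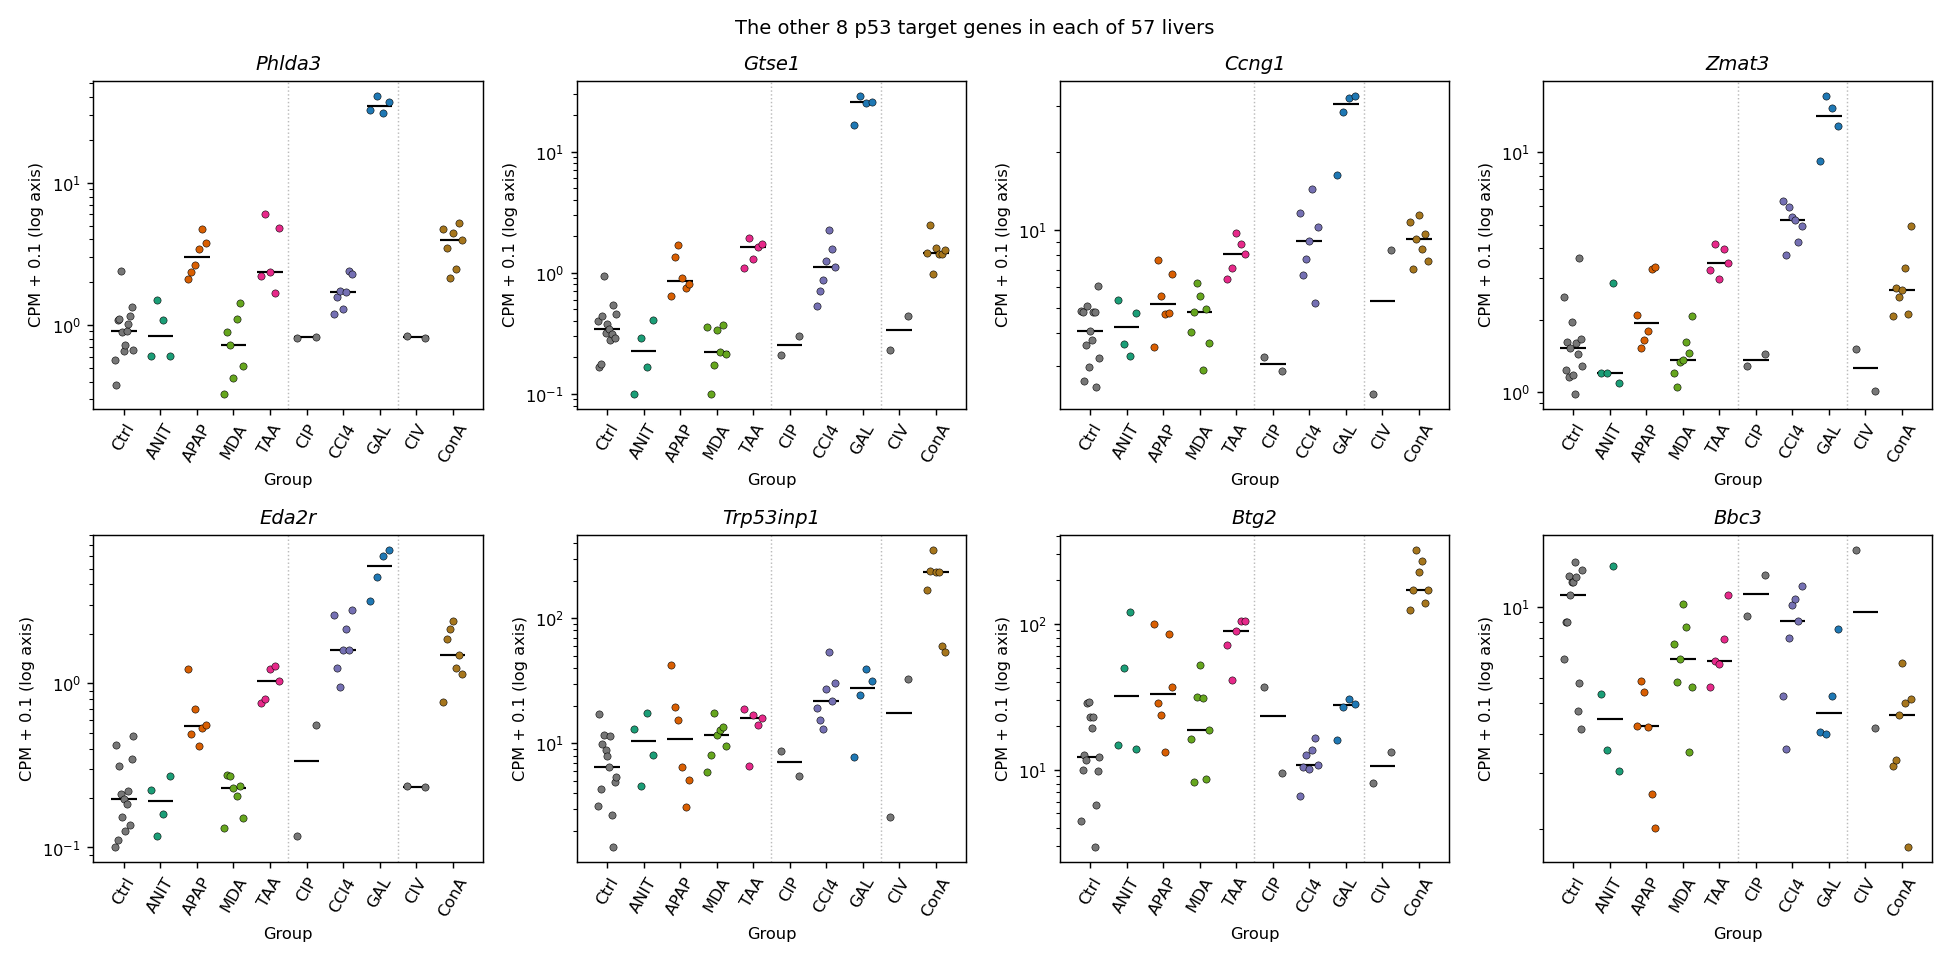
Levels of the other 8 genes in each of the 57 livers, as CPM + 0.1 on a log axis, by group, with a bar at the group median and dotted lines between routes. The GAL livers are the highest in Phlda3, Gtse1, Ccng1, Zmat3 and Eda2r by median, and the ConA livers in Trp53inp1 and Btg2. Bbc3 overlaps the vehicles of its route in all groups except GAL.

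Btg2, an antiproliferative gene that answers p53 and is also an immediate early gene, followed another order. Vehicle mice ranged from 2.82 to 36.8 CPM with a median of 12.0. The ConA mice ranged from 124 to 323 CPM with a median of 171, and the TAA mice had 71.4, 41.3, 89.7, 104 and 104 CPM. Both groups lay wholly above the vehicle mice. The ANIT mice had 14.5, 49.6, 120 and 13.6 CPM, so 2 of 4 lay inside the vehicle range. The GAL mice, at 15.9 to 30.6 CPM, and the CCl4 mice, at 6.49 to 16.3 CPM, lay wholly inside it. The APAP mice, at 13.04 to 99.0 CPM, and the MDA mice, at 8.11 to 52.1 CPM, overlapped it. The log2 change was 4.32 ± 0.47 (SE) with ConA (adjusted p = 0.000152), 2.54 ± 0.39 with TAA (2.33e-05), 1.76 ± 0.53 with ANIT (0.0195) and 1.75 ± 0.44 with APAP (0.00532). It was 0.69 ± 0.41 with MDA (0.207), 0.11 ± 0.55 with GAL (0.897; 1.497 without CIP replicate 7 and −0.59 without CIP replicate 8, neither called) and −0.997 ± 0.42 with CCl4 (0.0998). Without ANIT replicate 3 the ANIT value was 0.83 (adjusted p = 0.331), with library total scaling 1.53 (0.0513) and with limma 1.38 (0.0714), and among numbers above 4 the APAP value was 1.46 (0.109). Without CIP replicate 8, Btg2 was called lower with CCl4 (−1.67, 0.0106), and without CIP replicate 7 the value was 0.34 (0.579). Against all vehicle mice with library total scaling it was called higher with GAL (1.498, 0.00544).

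Of 10 other immediate early genes, 9 rose with ConA and 9 with TAA, the 2 compounds with the highest Btg2. Atf3, a stress-induced transcription factor, rose by 8.00 with ConA and 5.31 with TAA on the log2 scale, and Ier3, a stress-induced survival gene, by 7.71 and 6.29. With ANIT, APAP and MDA 3 of 10 rose. With CCl4 3 rose and 6 fell, and with GAL 1 rose and 3 fell. Their summed level was 1440 to 3496 CPM in the ConA mice, 891 to 2021 CPM in the TAA mice and 72.1 to 717 CPM in the vehicle mice. APAP replicate 1, which had the highest Btg2 of its group, had a sum of 2167 CPM, above every TAA mouse and 3 of 7 ConA mice.

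Trp53inp1, a nuclear and autophagy protein that promotes p53-dependent death, was highest with ConA. Vehicle mice ranged from 1.37 to 32.4 CPM with a median of 6.40, and the highest was CIV replicate 8, whose partner CIV replicate 7 had 2.46 CPM. The ConA mice ranged from 54.2 to 354 CPM with a median of 233, and ConA replicates 11 and 12, at 59.7 and 54.2 CPM, were the lowest. All ConA mice lay above every vehicle mouse. The log2 change was 3.53 ± 1.06 (SE) with ConA (adjusted p = 0.0267), 1.90 ± 0.56 with CCl4 (0.0269) and 1.05 ± 0.40 with TAA (0.0347). With GAL it was 1.86 ± 0.67 (0.0809), and without GAL replicate 2, at 7.71 CPM against 24.3, 39.5 and 31.4 in the others, 2.17 (0.00558). The GAL change was also called with DESeq2 (1.86, 0.00634), library total scaling (2.57, 0.0221), the replicate range as a covariate (2.33, 0.0474) and numbers above 4 (2.31, 0.00848). It was not called with no filter, limma or 1 fit over all groups (adjusted p from 0.0944 to 0.113). Against all 17 vehicle mice the GAL value was 1.59 ± 0.51 (0.0126), and without GAL replicate 7 it was 1.34 (0.0685). The ConA call was lost without CIV replicate 7 (2.64, adjusted p = 0.102) with the replicate range as a covariate (3.11, 0.0551) and among numbers above 4 (3.10, 0.0963). Without CIV replicate 8 it was 6.30 (0.0113), and against all 17 vehicle mice the value was 4.61 ± 0.44 (1.01e-09). The CCl4 call was lost without CIP replicate 7 (2.31, 0.0789) or CIP replicate 8 (0.199) and in 1 fit over all groups (1.86, 0.114). The TAA call was lost without TAA replicate 1, 6, 7 or 8 (0.90 to 1.04, 0.0639 to 0.0993), with no filter (1.03, 0.0553) and in 1 fit over all groups (0.99, 0.0849). With APAP it was 1.09 ± 0.49 (0.0931), and it was called only without APAP replicate 8 (1.31, 0.0473). It was 0.44 (0.535) without APAP replicate 1 and −0.43 (0.627) among numbers above 4.

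Bbc3, which encodes the cell death protein Puma, was not called higher with any compound. Vehicle mice ranged from 4.03 to 15.1 CPM with a median of 10.9. The APAP mice ranged from 1.91 to 5.77 CPM with a median of 4.11, and 2 of 6 lay below every vehicle mouse. The GAL mice had 3.95, 3.88, 5.16 and 8.44 CPM, below both CIP mice at 9.28 and 12.6 CPM. The log2 change with APAP was −1.26 ± 0.29 (SE; adjusted p = 0.00244). With the other 6 compounds it lay between −1.18 ± 0.50 with ConA (0.0955) and −0.31 ± 0.26 with TAA (0.339), so none was called. Bbc3 was called lower with ANIT without ANIT replicate 3 (−1.32, adjusted p = 0.0211), with GAL without GAL replicate 8 (−1.32, 0.0347) and with ConA without CIV replicate 8 (−1.84, 0.0277). It was also called lower with GAL by DESeq2 (−1.02, 0.0478), and with ConA with library total scaling (−1.79, 0.0359) and in 1 fit over all groups (−1.21, 0.0321). Without CIV replicate 7 the ConA value turned to 0.11 (0.907). Against all 17 vehicle mice it was −1.28 ± 0.30 with APAP (0.00161), −1.13 ± 0.28 with ConA (0.000819) and −0.89 ± 0.33 with GAL (0.0289). The last was lost without GAL replicate 2, 4 or 7 (−0.83 to −0.71, adjusted p from 0.0864 to 0.134) with scaling to the library total (−0.09, 0.833) and among numbers above 4 (−0.54, 0.403). With that scaling the uncalled CCl4 value turned from −0.37 to 0.10.

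Bbc3 is also known to answer CHOP, which acts with ATF4 in the response to amino acid lack and misfolded protein. Of 8 other genes of that response, 7 rose and 1 fell with ANIT, 7 rose with CCl4, 5 rose and 1 fell with APAP, 5 rose with ConA, 4 rose and 1 fell with MDA and 4 rose with TAA. With GAL 1 rose, Sesn2, and 3 fell. Ddit3, which encodes CHOP, rose most with CCl4, by 5.25 on the log2 scale, and was at 0.86 ± 0.53 (SE) with GAL, where it was not called (adjusted p = 0.253). Bbc3 was not called higher with CCl4 (−0.37 ± 0.39, adjusted p = 0.502). A part of CHOP in the level of Bbc3 was not tested.

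Mouse by mouse, the members above all 17 vehicle mice numbered 1 to 3 with ANIT, 1 to 3 with MDA, 2 to 5 with APAP, 5 to 7 with TAA, 4 to 7 with CCl4, 7 to 8 with GAL and 7 to 8 with ConA. The share of all tested genes above all 17 vehicle mice ran from 8.8% to 26% of genes per mouse over the 40 treated mice. Its median was 12.55% with ANIT, 13.1% with MDA, 12.7% with APAP, 19.8% with TAA, 19.5% with CCl4, 21.95% with GAL and 24% with ConA. The groups with more members above, TAA, CCl4, GAL and ConA, thus also had the higher shares. Cdkn1a was above in every treated mouse, and it was the only member above in ANIT replicate 1 and MDA replicate 2. Cdkn1a and Mdm2 alone were above in ANIT replicate 4 and in 5 of 7 MDA mice, and MDA replicate 4 added Btg2. APAP mice differed in their sets. APAP replicate 1 had Cdkn1a, Mdm2, Eda2r, Trp53inp1 and Btg2 above, and APAP replicate 6 had Cdkn1a and Phlda3. All 4 GAL mice shared Cdkn1a, Mdm2, Phlda3, Ccng1, Eda2r, Zmat3 and Gtse1. All 7 CCl4 mice shared Cdkn1a, Mdm2, Eda2r and Zmat3. The 7 ConA mice shared Cdkn1a, Mdm2, Eda2r, Trp53inp1, Btg2 and Gtse1, and the 5 TAA mice Cdkn1a, Mdm2, Eda2r, Btg2 and Gtse1. Of the 10 genes, Bbc3 was above all vehicle mice in 0 of 40.

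**Figure D5:**
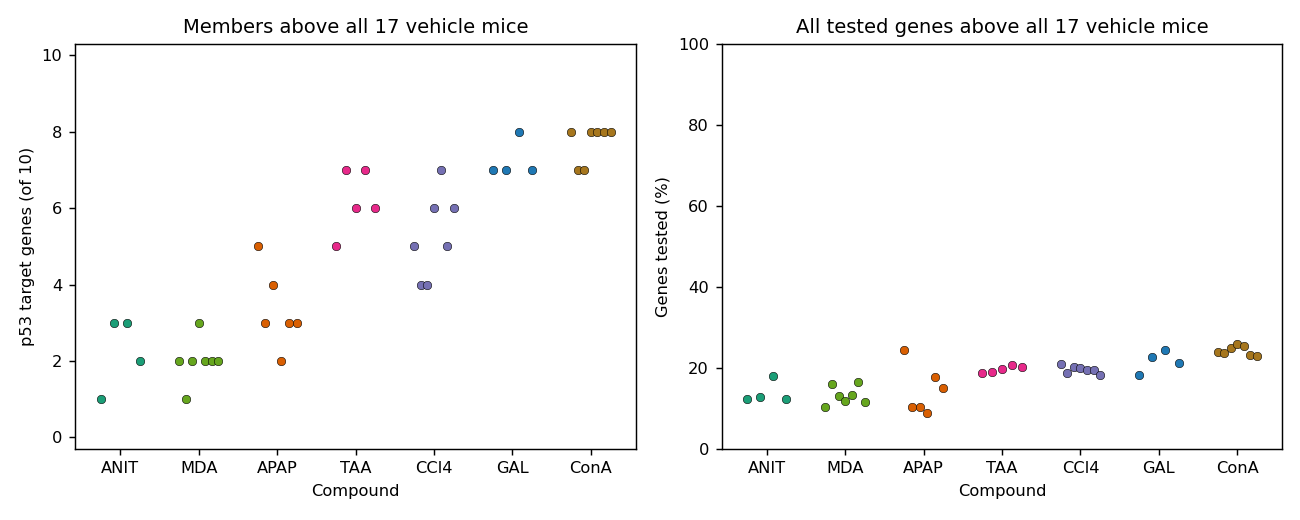
Left, the number of the 10 genes whose level in a treated liver lies above all 17 vehicle livers. Right, the percent of all tested genes above all 17 vehicle livers in the same liver. Each point is 1 of 40 treated livers. Counts run from 1 to 3 with ANIT and MDA and from 7 to 8 with GAL and ConA. The shares on the right run from 8.8% to 26%, with medians of 12.55% and 13.1% with ANIT and MDA and 21.95% and 24% with GAL and ConA.

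Differences between compounds were tested over 21 pairs in 1 edgeR fit of all 10 groups, directly within a route and as differences of changes across routes, with p-values adjusted over 18781 genes in each pair. Pairs that include the same compound or vehicle share its mice. The filter of this fit took all 10 groups at once, so all 10 members entered. Eda2r and Gtse1, too low for the filter with ANIT and MDA, and Eda2r with APAP, passed it here through groups where they were higher. Pairs with these compounds include members admitted this way. ANIT and MDA differed in 0 of 10 members, beside 0.240% of all genes, and 1 member, Btg2, had an unadjusted p under 0.05. The log2 difference, ANIT minus MDA, was 0.01 ± 0.39 (SE) in Cdkn1a and 1.06 ± 0.52 in Btg2. Cdkn1a was not called different between ANIT and APAP (0.03 ± 0.40) or between APAP and MDA (−0.02 ± 0.35) either. APAP was higher than MDA in 3 members (16.5% of all genes), Phlda3 by 2.17 ± 0.35, Gtse1 by 2.50 ± 0.44 and Eda2r by 2.16 ± 0.53. Phlda3, Gtse1 and Eda2r were also the 3 members that differed between ANIT and APAP (16.9%), with APAP higher.

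Among the gavage compounds, MDA and TAA differed in 8 of 10 members, all higher with TAA (26.2% of all genes), and ANIT and TAA in 7, all higher with TAA (23.8%). APAP and TAA differed in 2 (9.65%), with APAP minus TAA at −1.43 ± 0.38 (SE) in Cdkn1a (adjusted p = 0.0108) and −1.62 ± 0.28 in Mdm2 (0.000117). ANIT minus TAA was −1.40 ± 0.43 in Cdkn1a (adjusted p = 0.0146), and −1.197 ± 0.43 (0.0408) with the replicate range as a term, a setting added after the vehicle levels were seen.

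The 2 intraperitoneal compounds differed in 7 of 10 members, all higher with GAL (28.6% of all genes). CCl4 minus GAL was −4.45 ± 0.44 (SE) in Gtse1 and −4.42 ± 0.38 in Phlda3. It was between −1.76 ± 0.38 in Cdkn1a and −1.24 ± 0.28 in Mdm2 for those 2 and for Ccng1, Eda2r and Zmat3. Across routes, GAL and ConA differed in 5 members (16.8%): Gtse1, Phlda3, Ccng1 and Zmat3 were higher with GAL by 4.84, 3.27, 2.41 and 2.14, and Btg2 was lower with GAL (−4.14 ± 1.08). TAA and ConA differed in 0 of 10, beside 9.06% of all genes, and 2 members, Trp53inp1 (TAA minus ConA −2.48 ± 0.97, adjusted p = 0.101) and Btg2, had an unadjusted p under 0.05. This contrast runs through the 2 CIV mice, at 2.46 and 32.4 CPM of Trp53inp1. The TAA mice had at most 18.8 CPM of Trp53inp1 and 104 CPM of Btg2, and the ConA mice at least 54.2 and 124 CPM. TAA exceeded CCl4 in Cdkn1a by 2.25 ± 0.57 and in Btg2 by 3.51 ± 0.75 (7.34%). Gtse1 differed in the most pairs, 14 of 21, and Bbc3 in 0 of 21. For pairs with ANIT or MDA, Gtse1 was admitted through the other groups.

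Cell type markers moved in several groups, and their part in these results was not tested. Given here are the lists with 3 or more genes called in 1 direction against the route vehicle, and the B cell genes. The 6 hepatocyte genes all fell with CCl4 and 5 of 6 fell with GAL, with sums of 19540 to 29440 and 25240 to 33140 CPM against 50890 to 115500 CPM in the vehicle mice. With TAA 3 of the 6 fell and 1 rose, and the sum lay inside the vehicle range. All 6 neutrophil genes rose with TAA (159 to 826 CPM summed) and 4 of 5 tested rose with ConA (127 to 287 CPM), against 2.11 to 62.2 CPM in the vehicle mice, where the defining marker Ly6g was at 0. All 5 Kupffer cell genes fell with ConA (22.9 to 49.8 CPM against 152 to 437 CPM). Neutrophil genes also rose with GAL (4 of 5 tested, 25.3 to 40.75 CPM, inside the vehicle range, and 1 of 5 against all 17 vehicle mice) and APAP (3 of 4 tested, 13.4 to 263 CPM). Monocyte and macrophage genes summed to 45.0 to 132 CPM in the vehicle mice, 179 to 276 CPM with GAL (3 of 5 rose), 147 to 243 CPM with APAP (4 of 5 rose) and 138.5 to 219.9 CPM with TAA (3 of 5 rose). All 5 stellate cell genes fell with MDA and 3 of 5 with ConA (10.4 to 43.5 and 11.5 to 34.1 CPM against 31.4 to 83.7 CPM). Of 5 sinusoidal endothelial genes, 3 fell with CCl4, with sums of 52.0 to 74.1 CPM, wholly below the vehicle mice at 85.5 to 143.5 CPM, and with TAA 3 fell and 2 rose. B cell genes rose with TAA (3 of 3 tested) and fell with MDA (2 of 2) and ANIT (2 of 3), with sums of 10.1 to 17.6, 0.78 to 2.46 and 0.927 to 3.22 CPM against 3.92 to 10.1 CPM.

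Beyond the 10 genes, 30 other p53 targets were counted. A gene could pass the filter through its treated mice, so the counts and the median below, over 23 to 30 tested genes, do not compare like sets. With GAL 14 rose and 1 fell of 30 tested, with a median log2 change of 1.46 beside 0.08 over all genes. Among them were Tnfrsf10b, a death receptor (7.52 to 17.8 CPM against 0.127 and 0.155 in the CIP mice), and Psrc1, a spindle protein (9.94 to 14.1 CPM against 0 and 0.157). Plk2, a stress-induced kinase, had the largest change with TAA, 4.41 ± 0.14 (SE; adjusted p = 1.2e-13). With TAA 12 rose and 4 fell of 27, with ConA 11 rose and 2 fell of 27, and with APAP 9 rose and 2 fell of 24. With CCl4 8 rose and 4 fell of 28, and with ANIT 5 rose and 0 fell and with MDA 5 rose and 1 fell, each of 23. The injected compounds gave other counts against all 17 vehicle mice, 11 and 7 of 26 with CCl4, 16 and 3 of 29 with GAL and 13 and 7 of 25 with ConA (higher and lower). Gadd45a, a growth arrest gene, rose most with ConA, by 5.76 ± 0.92 (SE; adjusted p = 0.00116). Sesn2, a stress-induced inhibitor of growth signalling that also answers ATF4, rose with all 7 compounds, by 0.71 with MDA to 2.26 with GAL.

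Trp53, the gene of p53 itself, rose with GAL by 1.58 ± 0.18 (SE; adjusted p = 0.00319), CCl4 by 1.07 ± 0.18 (0.00167) and TAA by 0.71 ± 0.15 (0.000498). The GAL mice had 49.7 to 56.4 CPM and the CIP mice 15.7 and 18.9 CPM. With the other 4 compounds it was not called. Of 11 genes of p53 and its regulators, 7 to 8 were tested. Against the route vehicle 4 rose and 1 fell with TAA, 2 rose and 1 fell with MDA, 1 rose with APAP, CCl4 and GAL each, and 1 fell with ANIT and ConA each. When compared with all 17 vehicle mice, 4 rose and 3 fell with ConA, 3 rose and 2 fell with GAL and 3 rose with CCl4. Chek1, a checkpoint kinase, rose with APAP (3.43) and TAA (2.20). Chek2, the other checkpoint kinase, fell with ANIT (−3.12), MDA (−2.38), TAA (−1.53) and ConA (−4.004). Of 6 other cyclin-dependent kinase inhibitors, 4 to 5 were tested per compound, and the 1 call higher was Cdkn2b with CCl4 (2.57). Cdkn2b was not tested with ANIT, APAP, MDA, TAA or ConA, although the TAA mice had 0.435 to 0.781 CPM against at most 0.403 in Ctrl. With GAL it was 0.219 to 3.76 CPM, above both CIP mice at 0.0822 and 0.149, and was not called (4.17 ± 1.29, adjusted p = 0.0537). Cdkn2c fell with APAP, MDA, TAA and ConA, and Cdkn2d with ANIT (−1.13, adjusted p = 0.0469). Cdkn1c, the close relative of Cdkn1a that encodes p57, fell with GAL (−2.99) and MDA (−0.89). Tested against all 17 vehicle mice, 4 of 4 inhibitors fell with GAL, 2 of 5 with CCl4 and 2 of 4 with ConA.

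Likeness is given as r (Pearson) between genes on the log2(CPM + 1) scale over the 57 mice, a description in which the mice share groups and libraries. Among 12370 genes averaging 1 CPM or more, those most like Cdkn1a outside the list were Hmox1 (0.931), which encodes heme oxygenase 1, Chic2 (0.900), Tnfrsf12a (0.888), the receptor of the cytokine TWEAK, Eif6 (0.886) and Bmp2k (0.885). Those most like Mdm2 were Gnl3 (0.950), a nucleolar protein, Naf1 (0.933), Dhx15 (0.930), Ppp2r2a (0.923) and Tma16 (0.923). Among the members, Phlda3 and Gtse1 were most alike (0.943, and 0.302 after subtracting group means), then Ccng1 and Eda2r (0.880, and 0.309) and Zmat3 and Eda2r (0.855, and −0.026). Cdkn1a was most like Mdm2 (0.812, and 0.264 after subtracting group means). Bbc3 was below 0 with all the other members, but after subtracting group means it was above 0 with 6 of the 9, up to 0.446 with Btg2 and 0.329 with Trp53inp1.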

How the data were processed

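Estimated counts for 54307 Ensembl mouse genes in 57 mice were deposited by the authors. The submitters' processing notes name Salmon 1.6.0, R 4.1.3 and the build GRCm39, with no role given. Which annotation was used, and whether strand entered the counting, is not given in the sources used here. The longer a gene's only transcript, the lower was its smallest nonzero estimated count (Spearman's rho −0.945 over 3402 genes, which are not independent), so the values look corrected for length, which no header or label states, and no counting intervals were computed. Symbols came from GENCODE M21 names (51482 IDs matched), and promoter windows from RefSeq, GRCm38.p6.

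Estimated counts were rounded and tested with edgeR 4.0.16 in R 4.3.3 using TMM scaling, filterByExpr and the two-sided quasi-likelihood test, 1 fit per comparison on its 2 groups with no covariate, and Benjamini-Hochberg adjustment over all tested genes. Standard errors were derived from the F statistic. Each of 7 compounds was set against its route vehicle and against all 17 vehicle mice. Alternatives were DESeq2 1.42.0, library total scaling, no filter, limma 3.58.1 on log2(CPM + 1), 1 fit of all 10 groups, replicate range (1 to 4 or above), the replicate block and leaving out each mouse of the treated groups and of the 2-mouse vehicle groups. The replicate range as a term in the compound differences was added after the vehicle levels were seen. Scripts were tested on simulated data. The members, gene lists and alternatives were chosen with earlier results of these data known. The genes named are the 10 members, the largest changes of each list and the 5 genes most like Cdkn1a and Mdm2. Genes named for other reasons (Sesn2, Ddit3, Trp53, Cdkn1c, Cdkn2c) were chosen after their values were seen.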

Additional observations from a re-analysis of the deposited data

Results flagged for a closer look

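Of 70 sets of values (10 genes in 7 treated groups), 3 held a mouse far from the others of its group, and chance alone marks about 1 in 20. Mdm2 stood at 25.37 CPM in APAP replicate 1, with the next at 13.29 CPM. In MDA replicate 2 Mdm2 stood at 6.634 CPM, below the next at 14.1 CPM and inside the vehicle range. Zmat3 stood at 2.739 CPM in ANIT replicate 3, with the next at 1.105 CPM. APAP replicate 1 also had the highest Cdkn1a of its group (263 CPM), and ANIT replicate 3 the highest Cdkn1a, Mdm2 and Btg2 of its group (144, 24.2 and 120 CPM).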

How the results depend on the processing

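Of 1728 fold changes of single members under an alternative, 1639 kept their direction and their side of the threshold, 66 were no longer past it, 23 were newly past it and 0 called values were reversed. Of 187 counts of members higher, 178 stayed within 1.5 times of the reported count. Cdkn1a was past the threshold in every alternative run. With scaling to the library total, ANIT against Ctrl raised 1 member, and with replicate numbers above 4 APAP raised 2 members against Ctrl and 3 against all vehicles, where fewer mice entered. Leaving out 1 mouse each gave, against the route vehicle, 1 to 3 members higher for ANIT, 5 to 6 for APAP, 2 for MDA, 8 to 9 for TAA, 3 to 8 for CCl4, 6 to 8 for GAL and 6 to 8 for ConA. Against all vehicles it gave 1 to 3, 4 to 6, 2, 8, 8, 7 to 8 and 8 to 9. Where this left 1 vehicle mouse, that mouse was assumed to vary like the treated ones. The cause was not tested.

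Same-numbered mice were not treated as paired in the reported fits, and whether they were paired cannot be told from the labels. Correlations of their deviations from group means ran from −0.148 to 0.274 among the comparisons with 2 or more shared numbers, which does not exclude pairing. The own number gave the best match for 0 of 4 ANIT, 1 of 4 APAP, 0 of 7 MDA, 1 of 4 TAA and 2 of 2 GAL mice. The GAL matches, at r of 0.038 and 0.039, carry little, since the deviations of the 2 CIP mice mirror each other. With the replicate block, which uses only shared numbers and so fewer mice, the count was 1 for ANIT, 1 for APAP, 2 for MDA, 7 for TAA and 8 for GAL. The share of all genes called is not given here for the replicate block. With it Mdm2 and Btg2 were not called with ANIT, Mdm2, Phlda3, Btg2 and Bbc3 with APAP, or Phlda3 (1.75, adjusted p = 0.0693) and Trp53inp1 (1.09, 0.0752) with TAA, and Trp53inp1 was called with GAL (2.34, 0.00934). No block could be fitted for CCl4 or ConA, which share 1 number with their vehicle. With the replicate range as a term, the count of members differing between compounds of 1 route stayed the same in all 7 pairs.

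Scaling to the library total moved the median log2 change of all genes to −0.23 for ANIT, 0.22 for APAP, 0.53 for CCl4, 0.84 for GAL and −0.56 for ConA against the route vehicle. The share of calls that were higher moved from 49.5% to 23.7%, 54.3% to 72.5%, 53.6% to 80.6%, 44.9% to 86.7% and 49.3% to 22.7% in that order. The members moved with this scaling, by 0.70 to 0.76 with GAL and by −0.62 to −0.54 with ConA. limma on log2(CPM + 1) gave smaller changes for the members with low levels, such as 2.56 for Eda2r and 4.85 for Gtse1 with GAL. Eda2r and Gtse1 lie near the lowest counts of the table, where changes could be missed. In the alternatives that tested them with ANIT or MDA, neither was called against vehicle mice. The restriction to numbers above 4 could not be run for ANIT.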
